A study of Mus musculus with 8 samples.

Results

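The comparison described here set both libraries of the C57BL/6J (B6) parents against both libraries of the DBA/2J (DBA) parents of a reciprocal mouse cross, at every autosomal CG read deeply enough in all of them. B6 and DBA are inbred strains, and each was represented by 1 female and 1 male mouse, 16 weeks old and fasted for 16 h. Genomic DNA of the liver was read by reduced representation bisulfite sequencing (RRBS), and 4 of the 8 libraries of the series entered the comparison. The other 4 came from the F1 livers of both directions of the cross, BXD (B6 mother) and DXB (DBA mother), 1 female and 1 male of each, and they served only for a separate look at the CGs found between the parents. A CG was a member where each of the 4 parent libraries had at least 10 reads, which left 253022 CGs, each strand on its own. The B6 female library reached 1191980 autosomal CGs with 10 reads, the B6 male 639385, the DBA female 870513 and the DBA male 515372.

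Methylation of cytosine in mammals sits mostly at CGs, where it is copied to both strands by maintenance methyltransferases after replication. Many promoters carry a CpG island, a stretch in which CGs stay frequent because they are kept unmethylated, while methylated CGs are lost over evolution as methylcytosine mutates to thymine. In RRBS the enzyme MspI cuts at CCGG and enriches for CG-rich fragments, bisulfite turns unmethylated cytosine into uracil, and the methylation level is the share of reads that still show a cytosine. A cytosine that a strain has lost to thymine is also read as unmethylated. In a bulk liver, a different level in the cells of a type and a different mix of cell types cannot be told apart.

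The libraries were close in mean level but not in depth or median level. Median coverage over the members was 91 and 73 reads in the B6 female and male, and 30 and 46 in the DBA female and male. The mean level was 39.5% and 39.4% in the B6 female and male, and 38.8% and 39.3% in the DBA female and male. The median level was 14.1% and 21.6% in the B6 female and male, and 12.1% and 20.8% in the DBA female and male. By the median, the female and the male of a strain were further apart than the strains within a sex. Between 44.2% and 48.4% of the members lay under a level of 10% in a library, and between 29.4% and 31.7% lay over 80%. The SD of the difference across CGs was 9.31 percentage points between the B6 mice, 10.4 between the DBA mice, 8.93 between the strains in females and 9.51 between the strains in males. Between a female of a strain and the male of the other it was 10.8 and 11.3 points. Among pairs of unlike sex, the pairs of a strain were therefore the closer, but the smallest SD of all was that between the females of different strains. In pairs of like sex from different strains, 2.08% (females) and 2.57% (males) of CGs lay over 25 points apart, fewer than the 2.97% between the B6 mice and 4.3% between the DBA mice. Over 50 points apart the order turned, with 0.405% and 0.376% between the strains against 0.247% and 0.222% within them. Sex and the depth and read set of a library go together here, since the female and the male of a strain are also its only replicates. Further mice of these strains were not analysed here. In the main test of read counts at each CG, p-values rest on a spread between the 2 mice of a strain that was pooled over CGs of similar coverage. They do not measure the spread at the CG itself.

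The library labelled B6 male stood apart in its SNP tags. Reads that hold a SNP had been assigned by the authors to a strain's chromosome, and 16.1% of its sorted cytosine calls were tagged DBA (Wilson 95% interval 16.04% to 16.08%, taking each call as independent), against 0.338% in the B6 female (0.336% to 0.340%). A tagged read gives a call at each cytosine it covers, so calls are not independent and these intervals are too narrow. A window with few sorted calls can rest on very few reads. The DBA-tagged calls were not spread evenly. In windows of 100 kb with at least 20 sorted calls, 1399 of 6019 windows of the B6 male held at least 10% DBA tags, and 681 of them held at least 90%. Of the 714 windows between 10% and 90%, the median share was 44.9%. On chromosomes 8 and 13, 44% and 43.2% of the windows that could be checked were at or above 90% DBA, while on chromosome 9 the share was 0.312%. The B6 female had 5 windows at or above 10%. Windows in which a B6 library reached 10% are called marked windows below. The 1403 marked windows held 23898 members, or 9.45%, and the counts of separated and called CGs are given with and without them. A further 156860 members, 62%, lay in windows with too few sorted calls in the B6 male to be checked.

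The levels in those windows moved with the tags. At CGs where the B6 female exceeded the DBA female by over 50 points, the B6 male is shown by window class in the plot of the female pair. In windows under 10% DBA (531 CGs), the median level was 87.9% in the B6 female, 86.5% in the B6 male and 0% in both DBA libraries. In windows of 10% to 90% DBA (91 CGs), the B6 female stood at a median of 88.9% and the B6 male at 45.5%. In windows of at least 90% DBA (83 CGs), the medians were 89.1% in the B6 female and 0% in the B6 male, the level of both DBA libraries. The male pair differed by over 25 points in the same direction at 485 of the 531 CGs, at 61 of the 91 and at 8 of the 83. In windows that could not be checked (222 CGs), the medians were 84.5% and 62.8% in the B6 female and male and 10.7% and 21.1% in the DBA female and male, and the male pair differed in that way at 112.

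**Figure D1:**
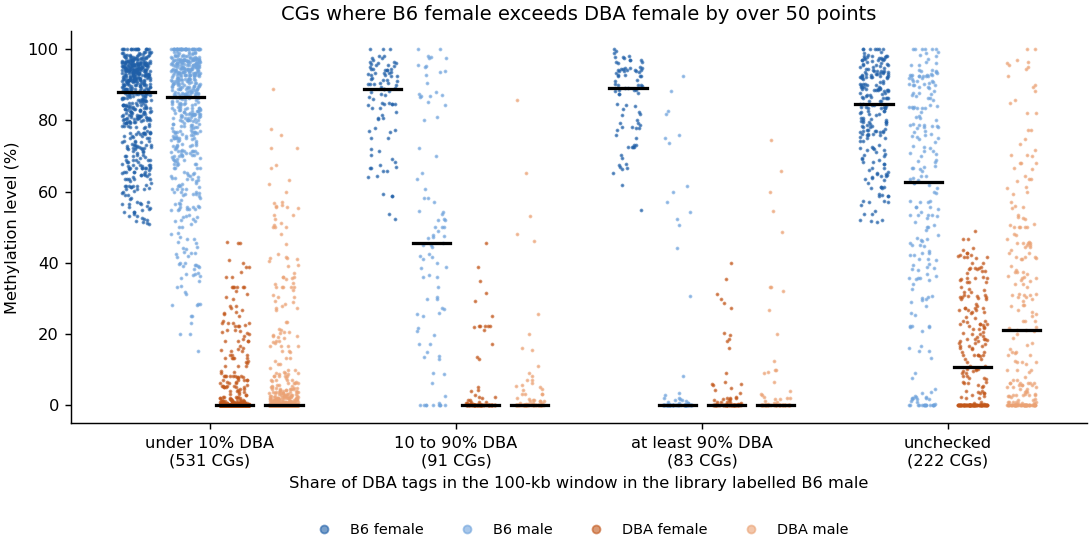
Methylation level (%) of each CG (points) in the 4 parent libraries, at CGs where the B6 female exceeded the DBA female by over 50 points, in 4 classes of 100-kb windows by the share of DBA tags in the library labelled B6 male. Black bars are medians, and the B6 male moves from 86.5% through 45.5% to 0% over the first 3 classes while the medians of the other 3 libraries hardly move.

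How often the strains did not overlap was counted first. Both B6 libraries lay above both DBA libraries at 25928 CGs, 10.2% of those tested, and both DBA libraries lay above both B6 libraries at 26942 CGs, 10.6%. At 43097 CGs all 4 levels were exactly equal, 40916 of them at 0% and 2181 at 100%. Without the marked windows the counts were 23492 (10.3%) and 24476 (10.7%). An exact permutation test of 2 against 2 mice cannot go below p = 0.333, so a CG without overlap is not by itself a significant difference. The direction was nearly balanced over all separated CGs, and their median distance between strain means was 6.23 points.

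The balance was lost with size. Between 5 and 10 points, 7380 separated CGs were higher in B6 and 8734 in DBA. Between 25 and 50 points there were 983 and 672. Between 50 and 75 points, 248 were higher in B6 and 51 in DBA, and above 75 points 397 were higher in B6 and 3 in DBA. Outside the marked windows these classes held 205 and 47, and 372 and 3. Over 50 points in all, 645 CGs (0.255% of those tested) were higher in B6 and 54 (0.0213%) in DBA, that is, 92.3% were higher in B6. Outside the marked windows these were 577 (0.252%) and 50 (0.0218%). Outside every window with any DBA-tagged call in a B6 library they were 303 and 31 of 187904 CGs. From reads without a SNP they were 260 and 43 of 238203 CGs. These were the CGs without any sorted read, a smaller set of CGs rather than the same CGs from other reads. When a library is left out, separation is a weaker demand. The CGs over 50 points higher in DBA then numbered 208 without the B6 female, 133 without the DBA male, 82 without the DBA female and 46 without the B6 male. Those higher in B6 numbered 632, 716, 783 and 848 in the same order. How many of the 54 themselves were kept was not counted. Without CGs under 2% in both libraries of a strain, 238 remained higher in B6 and 54 in DBA.

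**Figure D2:**
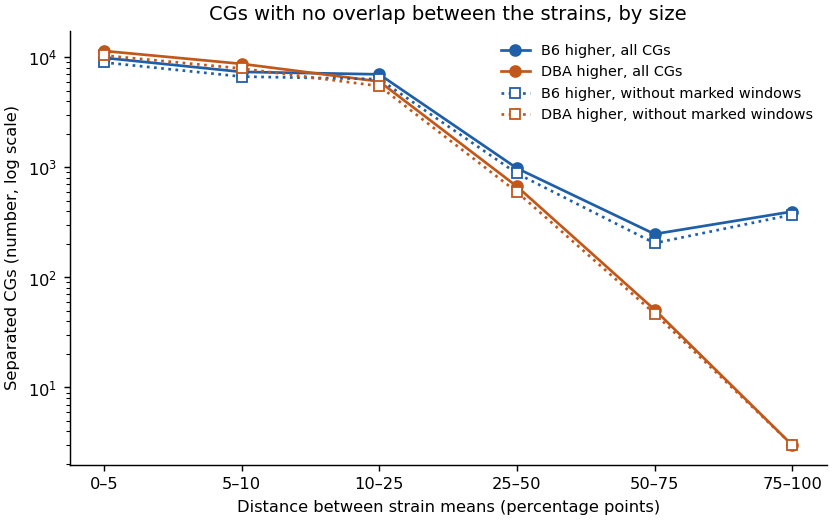
Number of separated CGs (log scale) by distance between the strain means in percentage points, for CGs higher in B6 (blue) and in DBA (orange), over all CGs (solid lines) and without the marked windows (dotted lines). The lines lie together up to 25 points and part above 50, where 397 CGs against 3 stand in the last class.

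A test of the read counts was then made at each CG, with edgeR's quasi-likelihood method on methylated and unmethylated reads, a level of its own for each library, and Benjamini-Hochberg adjustment over all 253022 CGs. At adjusted p under 0.05, the test called 1354 CGs (0.535%) in which B6 was higher and 403 (0.159%) in which DBA was. Fitted again without the marked windows, it called 1140 and 362. The estimate of the spread drew wholly on CGs of similar coverage, so a CG whose mice of a strain differ by more than is usual can be called, and 317 of the 1757 calls were not separated. Below, called CGs are those that were both called and separated, 1136 higher in B6 (0.449% of those tested) and 304 higher in DBA (0.12%). Outside the marked windows there were 1007 (0.44%) and 272 (0.119%). With limma on the levels, which allows each CG its own spread, 114 and 4 CGs were called. When coverage was thinned at each CG to that of its least covered library, edgeR called 0 CGs, with 4512 at unadjusted p under 0.05 against 9738 at full coverage. Separated CGs over 50 points were 652 and 55 after thinning, against 645 and 54 before. Without the DBA female the test called 816 and 130 CGs, and without the DBA male 854 and 147.

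The CGs higher in B6 were of several kinds. Their median level was 83.3% in the B6 female and 78.2% in the B6 male, against 0.722% and 2.04% in the DBA female and male. At 502 of the 1136, 44.2%, both DBA libraries lay under 2%, and the median difference there was 79.9 points. The CGs higher in DBA had no counterpart of that size. Their medians were 26.4% and 22% in the B6 libraries and 66.7% and 69.1% in the DBA libraries, and both B6 libraries lay under 2% at 14 of 304. Outside the marked windows the shares were 430 of 1007 and 14 of 272.

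Neighbouring CGs separated these kinds. Of the 502 CGs with both DBA libraries under 2%, 501 had another member CG within 100 bases, and the median difference between strains was 79.96 points at the CG itself but 1.20 points over its neighbours, which stood at 88.4% in B6 and 86.6% in DBA. At 17.6% of them the neighbours differed by over 10 points in the same direction. Of the other CGs higher in B6, 591 had a neighbour, and the neighbours differed by a median of 16.3 points (40.3 at the CG itself) and by over 10 points at 58.5%. At the 295 CGs higher in DBA with a neighbour, the values were 33.5 points lower in B6 at the CG, 20.5 points lower at the neighbours, and 74.6%. Without the marked windows the medians over the neighbours were 1.25 points, 15.97 points and 20.4 points lower in B6. Reads sorted by a SNP were also unevenly shared. They covered 5.86% of all members, 63.7% of the CGs with both DBA libraries under 2%, 27.6% of the other CGs higher in B6 and 15.8% of those higher in DBA. The authors left C/T SNPs out of their SNP calls, and the reference in which these sites are CGs is the B6 assembly. From the counts, a CG missing from the DBA genome and an unmethylated CG cannot be told apart.

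Examples show how local such a site can be. The sequences below are the NCBIM37 (mm9) plus strand around 5 coding-exon CGs with 0 methylated reads in both DBA libraries, chosen after their values were seen as the most deeply read in their weakest library among CGs over 50 points apart outside the marked windows. The CG in question is in capitals.
Uck2 (chr1:169157876-169157917): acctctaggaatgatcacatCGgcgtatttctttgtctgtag
Syt17 (chr7:125577749-125577790): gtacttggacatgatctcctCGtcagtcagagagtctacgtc
Zfp84 (chr7:30556384-30556425): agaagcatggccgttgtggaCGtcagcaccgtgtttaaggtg
Lrrc66 (chr5:74020952-74020993): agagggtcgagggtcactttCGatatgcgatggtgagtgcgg
H1fnt (chr15:98087029-98087070): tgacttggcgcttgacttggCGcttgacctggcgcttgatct

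In Uck2, which encodes a uridine-cytidine kinase, the CG stood at 96.1% of 76 reads and 95% of 120 reads in the B6 female and male, and at 0 of 27 and 0 of 51 reads in the DBA female and male, which allows up to 11.1% and 5.88%. Its 6 neighbours within 100 bases had a median of 94.5% in B6 and 92.9% in DBA. The F1 livers read 34.5%, 47.7%, 48.4% and 45.2% at this CG. In H1fnt, a linker histone of spermatids, the B6 libraries gave 95.9% and 100% and the DBA libraries 0 of 19 and 0 of 40 reads, with neighbours at 95.4% and 92.4%. In Syt17, a synaptotagmin, the B6 libraries stood at 85.4% and 83%, with neighbours at 97.0% in B6 and 99.6% in DBA. In Zfp84, a zinc finger gene, the B6 libraries stood at 67.6% and 42.1%, with neighbours at 71.4% in B6 and higher, at 89.1%, in DBA. In Lrrc66 the B6 libraries stood at 76.9% and 66.7%, with neighbours at 67.8% in B6 and lower, at 57.05%, in DBA. In each of the 5 the neighbours within 100 bases were methylated in both strains. The lack of overlap was given by the choice of these CGs. Their adjusted p (from 2.83e-28 to 3.78e-10, edgeR quasi-likelihood with Benjamini-Hochberg adjustment) rests on the same reads that chose them and adds no further support.

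**Figure D3:**
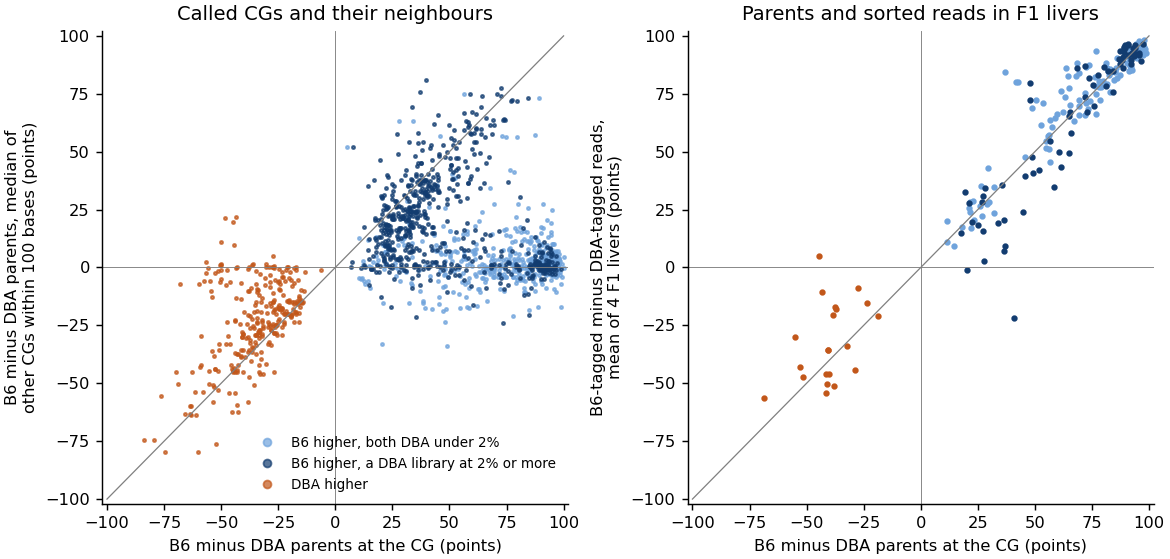
Left, the strain difference (B6 minus DBA, percentage points) at each called CG against the median difference of other CGs within 100 bases. Right, the difference between parents against the difference between B6-tagged and DBA-tagged reads within F1 livers (mean of 4 livers). Light blue points lie along zero on the left, with a neighbour median of 1.20 points, and near the diagonal on the right.

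Reads of the F1 livers gave values that the comparison of parents had not used. With 10 reads in all 8 libraries, the CGs with both DBA parents under 2% (277) averaged 72.9% in B6 and 0.144% in DBA parents, and 39.9%, 37.4%, 39.1% and 39.2% in the BXD female, BXD male, DXB female and DXB male. All 4 F1 livers lay between the parent means at 260 of these 277 CGs. The other CGs higher in B6 (447) averaged 73.7% and 27.9% in the parents and from 51.1% to 54.6% in the F1 livers, which all lay between the parents at 324. The CGs higher in DBA (219) averaged 30.5% and 65.4% in the parents and from 46.6% to 49.6% in the F1 livers, which all lay between at 150. Without the marked windows these counts were 226 of 236, 287 of 402 and 135 of 196. Where both chromosomes of an F1 liver could be told apart by 10 sorted reads in all 4 livers, B6-tagged reads were the more methylated in all 4 at 124 of 124 CGs of the first kind and at 71 of 74 of the second. At the CGs higher in DBA, DBA-tagged reads were the more methylated in all 4 livers at 15 of 21. Without the marked windows the counts were 109 of 109, 63 of 65 and 11 of 16. Of 3862 CGs with such reads that were not called between the parents, B6-tagged reads were higher in all 4 livers at 353 and DBA-tagged reads at 319.

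Position in genes was compared next, with protein-coding genes of GENCODE on NCBIM37. Promoters, taken from 1000 bases before to 500 after a gene's start, held 78922 of the members, with a median level of 0.325%. There 0.057% were called with B6 higher and 0.0418% with DBA higher, both below the shares over all members given above. In coding exons 0.414% were higher in B6 and 0.23% in DBA, in introns 0.542% and 0.146%, and outside genes 0.858% and 0.137%. Exons that do not code had 0.188% and 0.139%. The share higher in B6 was lowest in promoters and highest outside genes, while the share higher in DBA was highest in coding exons. Promoter CGs mostly lie near 0% in every library. Among members with a mean level of 10% to 80% over the 4 libraries, a class that the difference itself helps to fill, the shares were 0.31% and 0.276% in promoters, 1.7% and 0.984% in coding exons and 2.54% and 0.384% outside genes. Without the marked windows the coding exons had 0.365% and 0.198%, and the sequence outside genes 0.836% and 0.141%. Over all parts, a called CG lay in 509 genes or their promoters, 405 with a CG higher in B6, 114 with a CG higher in DBA and 10 with both, and 444 genes held one outside the marked windows. The genes that held any member are not counted here, so these numbers give no share of genes.

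**Figure D4:**
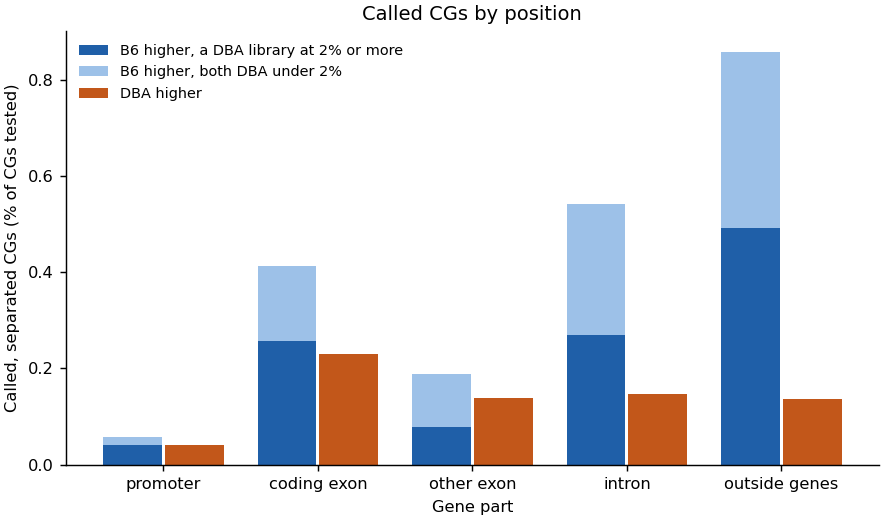
Called and separated CGs as a percentage of the CGs tested in each gene part, for CGs higher in B6 (blue, light where both DBA libraries lay under 2%) and higher in DBA (orange). Promoters have the lowest bars, at 0.057% and 0.0418%, and outside genes the bar for B6 reaches 0.858%.

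Called CGs were rarest where CGs are densest. With 16 or more CG dyads (a CG read on either strand) within 200 bases, the density of a CpG island, 0.0584% of CGs were called with B6 higher and 0.0419% with DBA higher. With 3 to 5 these were 0.815% and 0.162%, and with 6 to 10 they were 0.76% and 0.207%. With 11 to 15 they were 0.259% and 0.114%, and CGs almost alone, with 1 to 2, had 0.356% and 0.0594%. The share was therefore highest at middling density, at 3 to 5 for B6 and at 6 to 10 for DBA, and stood at 0.787% and 0.21% in these classes without the marked windows. Of the CGs in the densest class, 4 were of the kind with both DBA libraries under 2%, against 227 in the class of 3 to 5. Levels also followed density, from a mean of 79.6% in B6 and 79.0% in DBA at 1 to 2 CGs down to 3.55% and 3.59% at 16 or more.

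Runs of neighbouring CGs that moved together were gathered into clusters, with strain means over 25 points apart, at most 500 bases between neighbours and at least 3 dyads. There were 82 clusters higher in B6 and 51 higher in DBA. They held 20.4% of the 1628 separated CGs over 25 points higher in B6, and 29.6% of the 726 higher in DBA. Of the clusters higher in B6, 48 lay wholly outside genes and 3 touched a promoter. Of those higher in DBA, 11 lay outside genes and 40 overlapped a gene. For scale, 27.5% of all members lay outside genes and their promoters, and 31.2% lay in promoters. Both DBA libraries averaged under 2% in 1 cluster of 82. Without the marked windows there were 75 and 45 clusters. The values of the clusters themselves are a description, as a cluster is chosen for its difference.

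The clusters shown as sequence are 5 of the named ones within genes, picked by no fixed rule after their values were seen, again on the plus strand of NCBIM37 with the CGs of the cluster in capitals. They show how closely the separated CGs follow each other.
Tnks1bp1 (chr2:84903126-84903321): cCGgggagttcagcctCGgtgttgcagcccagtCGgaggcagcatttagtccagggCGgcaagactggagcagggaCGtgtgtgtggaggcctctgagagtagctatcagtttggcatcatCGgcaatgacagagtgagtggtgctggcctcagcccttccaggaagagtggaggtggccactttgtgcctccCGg
Aox3l1 (chr1:58379238-58379393): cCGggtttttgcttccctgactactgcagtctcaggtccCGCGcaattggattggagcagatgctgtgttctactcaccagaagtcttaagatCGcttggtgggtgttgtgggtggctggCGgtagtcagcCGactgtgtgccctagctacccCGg
Wnt5a (chr14:29322487-29322619): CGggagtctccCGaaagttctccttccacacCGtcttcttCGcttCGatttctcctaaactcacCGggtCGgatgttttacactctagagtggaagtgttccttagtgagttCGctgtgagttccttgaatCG
Arap1 (chr7:108496675-108496974): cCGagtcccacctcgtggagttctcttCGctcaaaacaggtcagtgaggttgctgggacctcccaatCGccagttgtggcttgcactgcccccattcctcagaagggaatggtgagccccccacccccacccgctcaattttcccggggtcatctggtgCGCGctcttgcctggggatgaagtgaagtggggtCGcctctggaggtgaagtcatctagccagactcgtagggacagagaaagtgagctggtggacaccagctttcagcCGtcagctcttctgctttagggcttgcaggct
Zfp697 (chr3:98231197-98231265): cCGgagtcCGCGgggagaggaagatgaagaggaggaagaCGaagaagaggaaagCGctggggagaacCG

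Among the clusters higher in B6, that in a coding exon of Tnks1bp1, a partner of the poly-ADP-ribosylating enzyme tankyrase, had 7 CGs, all called. Its mean level was 88.3% in the B6 female, 89.6% in the B6 male, 23.5% and 26.8% in the DBA female and male. At the 4 of these CGs with 10 reads in all 4 F1 livers, the parents stood at 91.8%, 95.02%, 26.8% and 30.4%, and the BXD female, BXD male, DXB female and DXB male at 70.4%, 51.3%, 61.9% and 68.6%. All 7 CGs of its sequence are in capitals, so every CG of those bases belonged to the cluster. The intron of Aox3l1, which encodes an aldehyde oxidase, held 7 CGs at 94.9% and 88.9% in B6 and 45.7% and 34.5% in DBA. An intron of Zap70, the kinase downstream of the T cell receptor, had 9 CGs at 80.1% and 70.5% in B6 and 22.5% and 48.9% in DBA, 4 of them called. The coding exon of Wnt3a, a ligand of the canonical Wnt pathway, had 5 CGs at 90.3% and 88.8% in B6 and 35.4% and 0% in DBA. It lay in a marked window, and the DBA male had a median of 10 reads there.

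Other clusters higher in B6 lay outside genes. At chr17:32733553-32733831, 9 CGs averaged 92.7% and 92.9% in B6 and 46.0% and 52.5% in DBA, but the 4 F1 livers stood at 85.9% to 92.2% over the 8 CGs with 10 reads in each, against 92.9% and 93.9% in B6 and 45.0% and 51.4% in DBA there. At chr12:18142996-18143189, 9 CGs averaged 55.8% and 50.4% in B6 and 13.4% and 13% in DBA, all called, but 10 of the 19 CGs tested in these bases were not part of the cluster. At chr1:182800511-182800608, 6 CGs stood at 72.1% and 64.7% in B6 and 43.1% and 26.2% in DBA. At the 4 CGs read in all F1 livers these ranged from 46.9% to 52.9%, between 72.4% and 60.4% in B6 and 42.1% and 20.2% in DBA. The cluster at chr6:3151502-3151558 had 7 CGs at 88.2% and 51.6% in B6 and 44.3% and 33.0% in DBA, and without the B6 female its difference fell from 31.2 to 12.9 points. At its 3 CGs read in all F1 livers these stood at 89.4% to 96.6%, above all 4 parents. In 1 named cluster, within Drg1 and 20 bases from the start of Sfi1, the median coverage was 1966.5, 465.5, 884 and 2176 reads in the B6 female, B6 male, DBA female and DBA male, far above that of the members in general. Whether more than 1 copy of the sequence was read there was not tested.

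Of the clusters higher in DBA, that in an intron of Wnt5a, a Wnt ligand known mainly for non-canonical signalling, had 9 CGs at 11% and 10.7% in the B6 libraries and 48.2% and 38.6% in the DBA libraries, 3 of them called. At the 6 CGs read in all F1 livers the parents stood at 13.4%, 12.8%, 50.4% and 37.7%, and the F1 livers between them, at 31.0%, 21.1%, 21.7% and 28.0%. The cluster in the promoter of Arap1, a regulator of membrane traffic, began 95 bases from the gene's start and had 8 CGs at 5.0% and 6.6% in B6 and 47.5% and 48.7% in DBA, 7 of them called. Its sequence is shown without the last of the 8. The coding exon of Zfp697, a zinc finger gene, had 6 CGs at 11.3% and 20.1% in B6 and 65.3% and 56.2% in DBA, all called. Zfp704, another zinc finger gene, had 5 intronic CGs at 36.9% and 32.5% in B6 and 90.9% and 91.8% in DBA. In a coding exon of Cyp26c1, an enzyme that breaks down retinoic acid, 6 CGs stood at 49.2% and 54.2% in B6 and 85.7% and 79.5% in DBA.

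Some of the longest clusters higher in DBA rested on unlike libraries of a strain. Phldb2 had 7 CGs at 14.8% and 7.9% in B6 but 58.3% and 24.3% in the DBA female and male. Snx20, a sorting nexin, had 6 CGs at 24.2% and 8.4% in B6 and 66.1% and 26.3% in DBA, so the B6 female and the DBA male nearly met. Gata6, a transcription factor of endoderm, had 6 CGs at 20.8% and 11.5% in B6 and 69.2% and 37.8% in DBA. None of the CGs of the Snx20 and Gata6 clusters was called, and 3 of the 7 in Phldb2 were. In Lrrc8d, a subunit of volume-regulated anion channels, the mice of a strain lay closer, with 6 CGs at 19.4% and 26.4% in B6 and 50% and 53.5% in DBA, and none was called either.

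**Figure D5:**
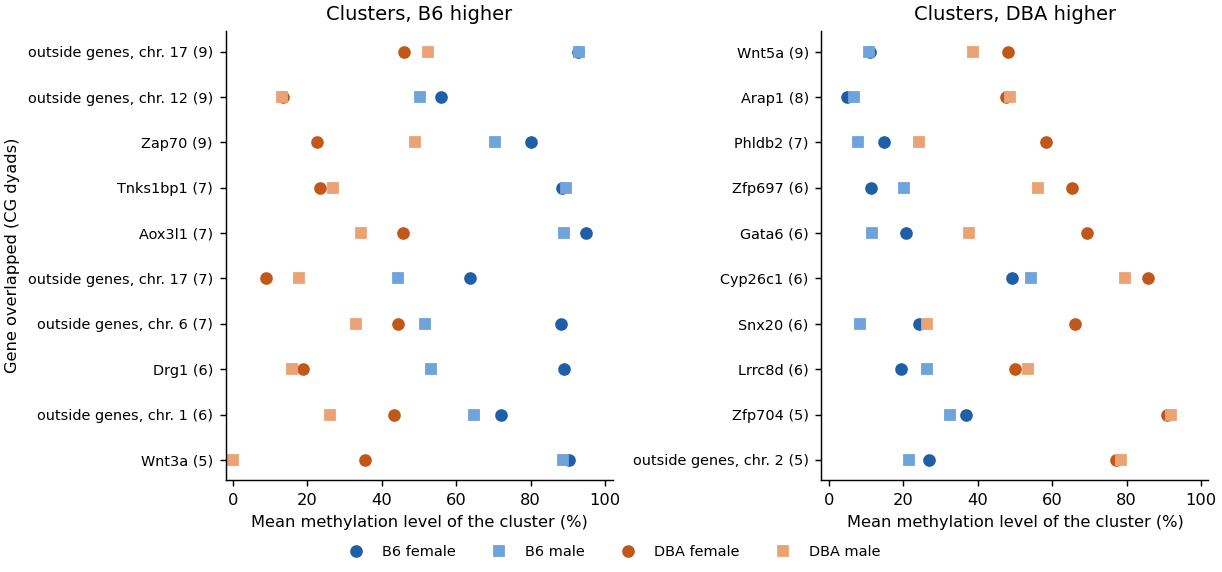
Mean methylation level (%) in each parent library of the 10 clusters of each direction with the most CG dyads (number in brackets), named by the gene they overlap. Circles are females and squares males. In Tnks1bp1, Arap1 and Zfp704 the mice of a strain lie together and the strains apart, while in Snx20 the B6 female and the DBA male lie side by side.

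Whole promoters were compared by adding the counts of their CGs, in 6962 promoters with at least 3 dyads. Of these, 5726 lay under 10% in all 4 libraries. The mean promoter level was 6.41% and 8.01% in the B6 female and male, and 5.97% and 8.17% in the DBA female and male, so it differed more between the mice of a strain than between the strains. The test called 15 higher in B6, 0.215% of those tested, and 11 higher in DBA, 0.158%, and none of the 26 lay in a marked window. Windows that could not be checked for DBA tags count as unmarked. Leaving out the marked windows therefore removed none of the 26 and does not clear them. Adding counts weights CGs by their coverage, and in 10 of the 26 the plain means of the strains lay under 5 points apart, with the model and the plain mean of opposite sign in 4. With sex as a block 6 and 3 promoters were called, and with limma on the levels 1 and 0. The promoter that limma called was Fsip1, so A930018M24Rik and Arap1 below lose their call with it. Of the 26, followed through the edgeR fits with sex as a block, without each library and without the marked windows, 3 stayed called with the same sign in each, Fsip1, A930018M24Rik and Arap1.

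Promoters named next held few member CGs, 3 in Fsip1, 4 in A930018M24Rik, Kifc3 and Gm10242, 6 in Slc25a31 and 8 in Sfi1. The promoter of Fsip1, whose product binds the fibrous sheath of the sperm tail, stood at 78.8% in the B6 female, 77.8% in the B6 male, 15.1% and 19.2% in the DBA female and male (adjusted p = 5.99e-08, edgeR). That of A930018M24Rik stood at 76.2% and 62.4% in B6 and 9.5% and 12.8% in DBA (adjusted p = 2.71e-17, edgeR). In Sfi1, which encodes a centrin-binding protein, the levels were 68.5% and 41.9% in B6 and 14.4% and 12.1% in DBA. The Sfi1 call was lost without the B6 female, where the difference went from 41.96 to 28.6 points. This promoter spans the very deeply read cluster within Drg1 described above. Whether further copies of the sequence were read there was not tested. In Kifc3, a kinesin motor, they were 42.2% and 31.3% in B6 and 7.8% and 13.1% in DBA, and the call was lost without the DBA female, where the difference was 23.6 points against 26.3 with all libraries. Gm10242 stood at 98.9% and 97.3% in B6 and 70.2% and 73.6% in DBA, and lost its call without the B6 female, with the difference at 25.4 points against 26.2. Slc25a31, an ADP/ATP carrier of mitochondria, had 93.8% and 90.8% in B6 and 82.0% and 66.7% in DBA, and lost its call without the B6 female or the DBA male, with the difference at 16.5 and 10.3 points against 17.96.

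Arap1 led the promoters higher in DBA, at 5.8% and 11.2% in B6 and 42.1% and 41.1% in DBA (adjusted p = 1.22e-06, edgeR), which is the cluster seen above. Gcsh, the hydrogen carrier of the glycine cleavage system of mitochondria, stood at 3.7% and 13.5% in B6 and 26.8% and 48.2% in DBA. Enpp2, which encodes autotaxin, the enzyme that makes lysophosphatidic acid, had 12.96% and 9.6% in B6 and 27.3% and 42.7% in DBA. Prr24 had 25% and 27.5% in B6 and 47.4% and 59.3% in DBA, and Ang2, of the angiogenin family, 76.1% and 79.0% in B6 and 92.9% and 93.5% in DBA. Member CGs numbered 11 in Arap1, 6 in Gcsh, 4 in Prr24 and 3 each in Enpp2 and Ang2. With sex as a block, Sfi1 and Kifc3 stayed called, while Gm10242, Slc25a31, Gcsh, Enpp2, Prr24 and Ang2 did not. When libraries were left out, Gcsh lost its call without the B6 female or the DBA male, Enpp2 without either male, Prr24 without any library other than the DBA female, and Ang2 without any of the 4. The difference (B6 minus DBA) kept its sign in each, from -39.5 to -18.2 points in Gcsh, from -31.4 to -15.98 in Enpp2, from -33.1 to -21.1 in Prr24 and from -17.1 to -14.2 in Ang2. In Fut11 the libraries overlapped, at 73.6% and 28.6% in B6 and 53.1% and 13.1% in DBA. The mice of a strain lay further apart there than the strains within a sex, and sex and library cannot be told apart.

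Lists of genes with a known role in this tissue were read against the shares of promoters called over all genes, 15 and 11 of 6962 as above, and so few promoters of a list were covered that single calls say little about it. Of 16 promoters of imprinted genes, whose parental copies are methylated differently, 1 was called, that of Zrsr1, a maternally methylated splicing factor gene within Commd1. It stood at 33.4% and 39.6% in B6 and 44.0% and 50.7% in DBA (adjusted p = 0.000334, edgeR), and the call was lost without the B6 female, without the DBA male (B6 minus DBA -7.77 and -7.52 points, against -10.9) and with sex as a block. The promoter of Mcts2, also imprinted, was separated, at 39.1% and 36.1% in B6 and 65.5% and 59.2% in DBA, but lay in a marked window and did not pass the test (adjusted p = 0.317, edgeR). The median absolute difference of the imprinted promoters was 3.03 points, against 0.697 over all promoters tested. Only 5 of the 16 lay under 10% in all 4 libraries, against 82.2% of all promoters, and mice of a strain could differ as much, as in Nnat at 53.3% and 38.1% in B6 and 63.6% and 48.4% in DBA. Of 500 members in imprinted genes, 6 were called higher in DBA (1.2%, against 0.12% over all members), all where Zrsr1 lies within Commd1.

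Of the 86 promoters of the other lists, edgeR called 0, with 1 at unadjusted p under 0.05, and limma called 0, with 2. They covered 8 promoters of H2 and antigen presentation genes, 7 of drug metabolism, 11 of the fasting response, 20 of lipid and cholesterol synthesis, 11 of hepatocyte transcription factors, 14 of DNA methylation enzymes and readers, and 4 of genes with known B6 or DBA variants. Their median absolute differences ran from 0.375 points in lipid and cholesterol synthesis to 1.37 points in drug metabolism. Single CGs higher in B6 were called in Srebf2, the master transcription factor of sterol synthesis (2 of 449 CGs in genes of its list, 0.445%), in Ciita, the activator of class II antigen presentation genes (1 of 154, 0.649%), and in Emr1 and Lck, markers of macrophages and T cells (2 of 256, 0.781%). Over all members the share was 0.449%. The 6 lists without a called CG in either direction held 1957 members in their genes. That 0 of these members were called by edgeR follows from how the lists were picked out and is no separate result, and 58 had an unadjusted p under 0.05. Limma on the levels called 0, with 66. Among lipid genes, the promoter of Abcg8, a sterol exporter of the canaliculus, stood at 52.4% and 37.5% in B6 and 70.5% and 56.5% in DBA without passing the test. Promoters of hepatocyte markers (6 tested of 40 genes) averaged from 6.92% to 13.3% in the 4 libraries, and those of other liver cells (6 of 43) from 15.6% to 18.02%. Medians of the 2 lists overlapped, from 2.08% to 6.79% for hepatocyte markers and from 3.2% to 5.91% for other liver cells. Among the latter, Tie1 alone stood at 60.9% to 70.2%. With so few promoters covered, the levels give only a weak check of the labelled tissue and of its cell mix.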

How the data were processed

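RRBS was read from the livers of 2 B6 and 2 DBA mice. The authors digested DNA with MspI, mapped reads with BS Seeker to the mm9 genome, kept unique alignments, and called SNPs from pooled reads without C/T SNPs. The authors deposited, per library, counts of reads with and without methylation for every cytosine and read class. Their 4 tables of comparisons, which hold mean levels, differences and p-values, were not used. The aligner's version and any handling of duplicates were not stated.

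Counts of all classes were added per cytosine, and autosomal CGs with at least 10 reads in all 4 libraries were kept. Levels are percentages. Levels at 10 reads come in steps of 10 points, and limits (3 reads of the total) cover counting error only. The intervals of tag shares take the calls of a read as independent and are too narrow. Strains were compared with edgeR 4.0.16 (quasi-likelihood, negative binomial dispersion 0, an intercept per library) in R 4.3.3, with limma 3.58.1 as an alternative. Both fits were also run on simulated data. All CGs of a simulation shared the same extra spread, so CGs with uneven spread were not covered. The default estimate of dispersion was replaced by 0 after recovering few changes in simulated data, and its values are not given here. Python 3.11.15, pandas 2.3.3, scipy 1.17.1 and matplotlib 3.10.9 were used. Named were the 10 clusters with the most dyads and the 10 called promoters with the largest difference in each direction, and called members of the gene lists. The comparison, members and lists were chosen with earlier results of these data known. Alternatives covered marked windows, coverage, read classes, strands, sex as a block and leaving out each library. Labels carry no replicate numbers, and sex alone links the strains.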

Additional observations from a re-analysis of the deposited data

Results flagged for a closer look

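In the library labelled B6 male, 16.1% of the sorted cytosine calls carried a DBA tag. The levels compared between the strains were summed over all read classes, and the tags served to mark windows and to set reads without a SNP apart. The control value is that of the B6 female, 0.338%, and the signal stood above it. The tags lay in windows, 681 of 6019 at or above 90% DBA and 714 between 10% and 90%. The source of these reads was not tested.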

How the results depend on the processing

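No count of the strain comparison kept its size under every setting, and none of the counts over CGs changed its leading direction, with the exceptions that the near balance of all separated CGs turned when coverage was thinned (16424 higher in B6 and 15813 in DBA), among checked windows (7975 and 7908) and when the B6 female or the B6 male was left out (55033 and 51502, 61537 and 49355). The direction of the promoter counts turned without the DBA female (21 and 29). Values below give B6 higher and then DBA higher. With at least 5 reads, 39516 and 42014 CGs were separated, 1172 and 129 by over 50 points, 2129 and 572 called, and 1807 and 416 called and separated. With at least 20 reads these were 13175 and 13490, 278 and 16, 684 and 212, and 582 and 163, of 119882 tested. With at least 50 reads they were 2770 and 3068, 65 and 3, 191 and 58, and 157 and 50, of 25044. In checked windows with under 10% DBA there were 478 and 29 by over 50 points, 776 and 204 called, and 726 and 172 called and separated, of 72274. Without windows in which a B6 library had any DBA call they were 18916 and 19842 separated, 303 and 31, 664 and 224, and 567 and 151. Leaving out the marked windows and refitting gave 1006 and 272 called and separated. With reads without a SNP only, 260 and 43 were over 50 points apart, 751 and 322 called and 608 and 235 called and separated, of 238203 CGs without any sorted read. Without CGs under 2% in both libraries of a strain, 238 and 54 were over 50 points apart, 393 and 118 called, and 372 and 110 called and separated. With coverage thinned to the least covered library, 652 and 55 CGs were over 50 points apart, but edgeR called 0 and 0, also 0 and 0 called and separated, with 4512 CGs at unadjusted p under 0.05 against 9738 at full coverage, and its estimate of the spread then leaned little on other CGs (prior degrees of freedom 1.25). With limma on levels, 114 and 4 were called, all separated, and 1 and 0 promoters, with 13495 CGs and 136 promoters at unadjusted p under 0.05. At over 25 points instead of 50, 1628 and 726 were separated, and at over 30 points 1207 and 399. With strands added, 1445 and 485 were called.

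With sex as a block, which pairs the females and the males of both strains, 1451 and 467 CGs were called, 1249 and 379 called and separated, and 6 and 3 promoters. Together with leaving out the marked windows, which was chosen after seeing the data, it called 1227 and 413. Leaving out each library in turn gave from 55033 to 61537 and from 49355 to 71034 separated CGs, from 632 to 848 and from 46 to 208 by over 50 points, from 816 to 1532 and from 130 to 448 called, from 782 to 1404 and from 114 to 423 called and separated, and from 7 to 21 and from 1 to 29 promoters. Separation is a weaker demand with fewer libraries. The lone library of a strain is then assumed to vary like the other strain. In the promoters named, leaving out a library turned the difference in Fut11 (from -4.53 to 40.5 points, negative without the B6 female or the DBA male) and, without the DBA male, in 4933403G14Rik (from -4.88 to 19.5), Rab23 (from -10.8 to 0.311), Fstl4 (from -5.77 to 0.716) and 4930506M07Rik (from -1.63 to 1.24). The causes were not tested.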
